A study of Mus musculus with 24 samples.

Results

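The data examined here are the change of the irradiation effect in mouse small intestinal organoids between 24 h and 96 h after a single dose of gamma radiation. For each gene the difference between irradiated and control organoids at 24 h was subtracted from the same difference at 96 h, on the log2 scale. The rule takes 16 of the 24 arrays of the series, 4 each of irradiated organoids at 96 h, control organoids at 96 h, irradiated organoids at 24 h and control organoids at 24 h. Organoids were derived from C57BL/6 mice and cultured with EGF (50 ng/ml), Noggin, R-spondin, B-27, N-2 and the antioxidant N-acetylcysteine, which all groups received. Irradiated cultures were given 6 Gy 3 days after reseeding, and each time had its own controls that were not irradiated. The labels name no genotype other than the strain, no age and no sex, and do not say how many animals the cultures came from, so the p-values below rest on how far these samples differ among themselves, which could be technical variation alone. The 8 arrays of a time shared a BeadChip, so each irradiation effect is a difference within a chip, while time and chip cannot be told apart. Controls held the same 4 chip positions and irradiated samples the other 4 at both times, so position and irradiation cannot be told apart at a single time. The labelled tissue was checked against marker genes. All 8 epithelial markers with a probe were detected on all 16 arrays. Of the markers of other cell types, 9 of 11 for mesenchyme, 7 of 12 for immune cells, 6 of 10 for endothelium and 6 of 7 for erythroid cells were detected on no array. Acta2 of mesenchyme was detected on all 16 arrays. Cd8a of immune cells and Esam of endothelium were detected on at least 2 arrays of each of the 4 groups. The mean signal of the mesenchymal markers was 5.34 to 5.48 in irradiated organoids and 5.29 to 5.37 in controls at 96 h. At 24 h it was 5.34 to 5.41 in irradiated organoids and 5.22 to 5.32 in controls. Immune cell markers read 4.807 to 4.868 and 4.72 to 4.748 at 24 h, and endothelial markers 4.783 to 5.018 and 4.738 to 4.775. For mesenchyme, immune cells and endothelium irradiated arrays were thus above all controls at 24 h, while erythroid markers overlapped. The immune cell and endothelial means lay under the lowest detected signal of each 24 h array, which was 5.15 to 6.26. At 96 h immune cell markers read 4.764 to 4.834 in irradiated organoids and 4.748 to 4.822 in controls. Endothelial markers read 4.934 to 5.004 and 4.775 to 4.934 at 96 h.

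Intestinal organoids keep the layout of the crypt and villus: stem cells that carry Lgr5 divide between Paneth cells at the crypt base, and their progeny become absorptive enterocytes or goblet, Paneth, enteroendocrine and tuft cells. Ionising radiation breaks DNA and activates the transcription factor p53, which halts the cell cycle and can trigger cell death in dividing crypt cells. Surviving cells can take on a regenerative state with genes of the fetal epithelium before the crypt is rebuilt. In bulk RNA, fewer cells of a type and less RNA per cell cannot be told apart.

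Most genes whose irradiation effect differed between the times moved towards no effect at 96 h. An effect here is irradiated minus control, a change of effect is the 96 h effect minus the 24 h effect, and a gene was called where the adjusted p of limma was under 0.05 over the 10798 genes tested. The effect was higher at 96 h than at 24 h in 486 genes (4.5% of those tested) and lower in 745 (6.9%), by at least 2-fold in 73 and 305 of them. In the 486 genes, the median effect was 0.18 at 96 h and -0.52 at 24 h. In the 745 genes it was -0.19 at 96 h and 0.70 at 24 h. The 96 h effect was nearer to zero than the 24 h effect in 406 of the 486 and in 564 of the 745 genes, against 6810 of all 10798. At 96 h alone 551 genes were called (5.1%), 185 higher (1.71%) and 366 lower (3.39%). At 24 h alone 2550 were called (23.6%), 1200 higher (11.1%) and 1350 lower (12.5%). At 48 h, between them, 1457 were called (13.5%), 7.27% of genes higher and 6.22% lower. The 287 genes called at both times made up 52.1% of those called at 96 h and 11.3% of those called at 24 h, and 46 of them had opposite directions. The larger group of genes with a changed effect was called at 24 h and not at 96 h, 369 with a higher and 505 with a lower effect at 96 h. Another 23 and 99 were called at 96 h and not at 24 h, 6 and 44 in the same direction at both, 9 and 37 in opposite directions and 79 and 60 at neither. As shares of all genes tested these patterns made up 8.09%, 1.13%, 0.463%, 0.426% and 1.29%. Irradiated and control arrays did not overlap in 7.55% of genes at 96 h and in 28.8% at 24 h.

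The change of effect can also be read along each arm, although that compares chips. In the 486 genes, irradiated organoids differed by a median of 0.62 between 96 h and 24 h, and control organoids by -0.09. In the 745 genes, the medians were -0.92 in irradiated and 0.09 in control organoids. Over all genes, irradiated organoids at 96 h were higher than at 24 h in 17.7% and lower in 15.1%, and control organoids in 6.74% and 5.68%. The median SE of a change of effect was 0.24, and of an effect at a single time 0.17. The split between higher and lower depended on the scaling: 60.5% of called genes had a lower effect at 96 h with quantile normalization, 36.4% with median scaling (301 higher, 172 lower) and 76.9% with cyclic loess (283 and 941). Median scaling moved the median change of effect over all genes to 0.19, against 0.02 here, with medians of -0.21 at 96 h and -0.44 at 24 h, so changes below are relative to the bulk of the genes. Detected probes numbered 12118 ± 1250 in irradiated organoids at 96 h, 12992 ± 895 in controls at 96 h, 11469 ± 1480 in irradiated organoids at 24 h and 13012 ± 485 in controls at 24 h (mean ± SD, n = 4 arrays each). Their difference of differences of 668.8 probes did not pass (exact two-sided permutation test over 4900 relabellings, p = 0.598). Without irradiated 24 h replicates 3 and 4, which had the fewest detected probes (9738 and 10783), 304 genes had a higher and 608 a lower effect. Without the 5 arrays with the fewest of all, these and irradiated 96 h replicates 3 and 4 and control 96 h replicate 4, the counts were 172 and 411.

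**Figure D1:**
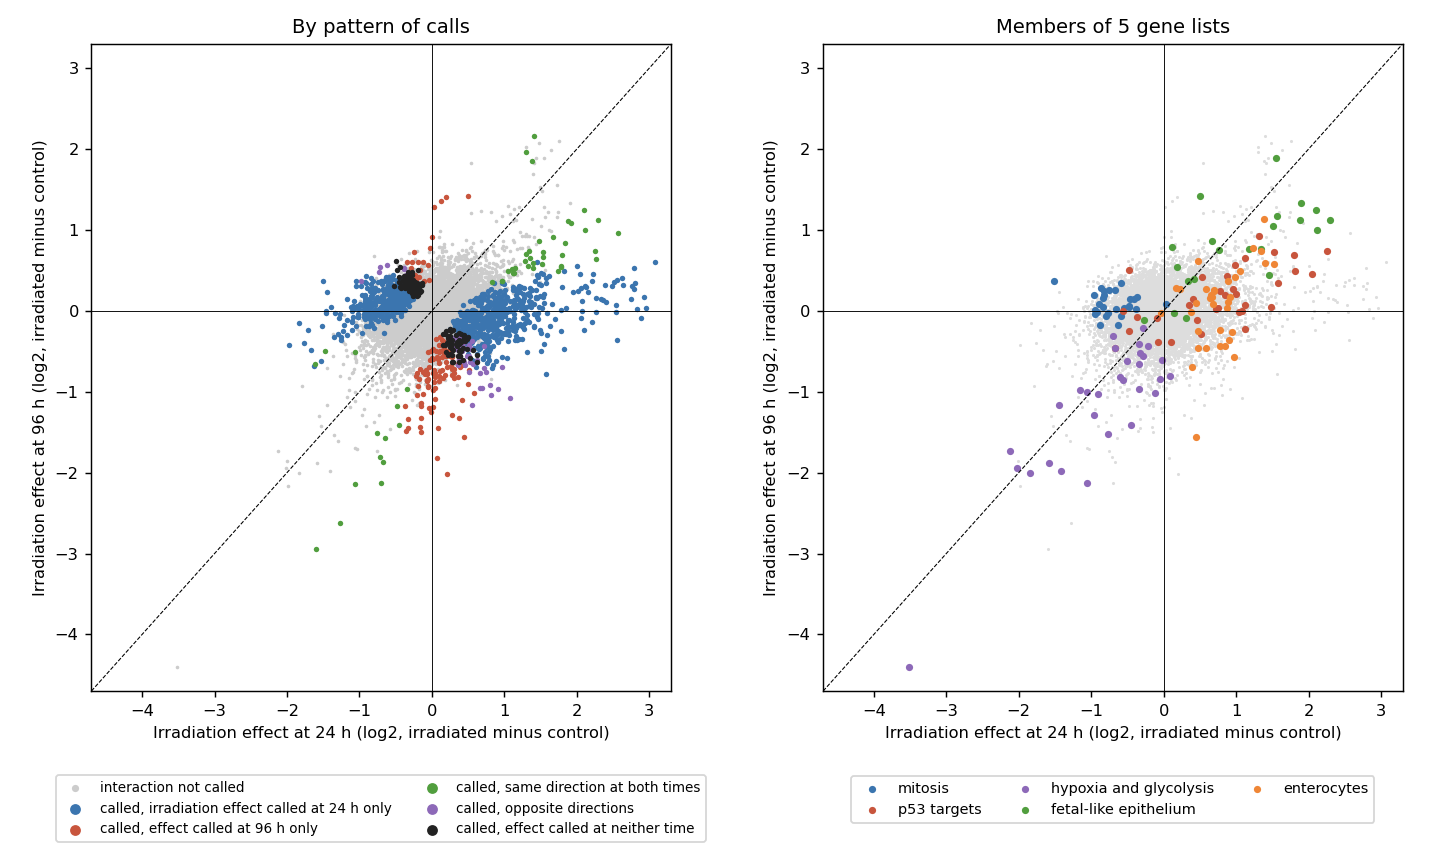
Irradiation effect of each of 10798 genes at 96 h (vertical axis) against that at 24 h (horizontal axis), both as log2 irradiated minus control, n = 4 arrays per group. Left, points are coloured by whether the change of effect and the effects were called; right, members of 5 gene lists; on the dashed line both effects are equal. The 369 and 505 genes called at 24 h only lie near zero on the vertical axis, mitosis genes left of zero and p53 targets and enterocyte genes right of it. Of 30 hypoxia and glycolysis genes, 22 lie under the dashed line and 8 above it.

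Genes of cell division were lower in irradiated organoids at 24 h and not at 96 h. Of 28 mitosis genes tested, the effect was higher at 96 h in 18 and lower in 0, with a median change of 0.81 against 0.02 over all genes. None of the 28 was called at 96 h (median effect 0.07), and 23 were lower at 24 h (median -0.76). Top2a, the topoisomerase that untangles chromosomes before they part, read 8.59, 8.23, 8.71 and 8.73 in irradiated organoids at 96 h, against 8.49, 8.85, 7.79 and 8.08 in controls at 96 h. At 24 h Top2a read 7.60, 7.54, 7.64 and 7.70 in irradiated organoids, against 8.69, 8.22, 8.44 and 8.14 in controls. The groups overlapped at 96 h, and at 24 h every irradiated array was below every control array. The change of effect was 1.02 (SE 0.26, limma adjusted p = 0.0135). Birc5, which encodes survivin of the chromosomal passenger complex, changed by 1.06 (SE 0.16, adjusted p = 0.00014), from effects of 0.24 at 96 h and -0.82 at 24 h. Cdc25c, a phosphatase that triggers entry into mitosis, had the most positive change among genes detected on at least 2 arrays of every group, 1.88 (SE 0.43, adjusted p = 0.0058). Its irradiated values at 24 h were the most spread, 6.14, 6.51, 5.12 and 5.30, and only 2 of those 4 arrays detected it. Of its other probes, 1 was called (1.54, adjusted p = 0.0117) and 1 was not (0.73, adjusted p = 0.123). Along the arms, mitosis genes differed between 96 h and 24 h by a median of 0.79 in irradiated organoids and by -0.02 in controls. Without irradiated 24 h replicates 3 and 4, 11 mitosis genes had a higher effect at 96 h, and without the 5 arrays with the fewest detected probes 10 did, where Top2a (0.84, adjusted p = 0.179) and Cdc25c (1.35, adjusted p = 0.0726) were no longer called.

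Promoters of mitotic genes often carry CCAAT boxes, bound by the factor NF-Y, and a cell cycle homology region (CHR), through which the DREAM and MuvB complexes time expression. The 250 bases before the transcription start (RefSeq, GRCm38.p6) are shown for Top2a, for Cdc2a, now Cdk1, the kinase that drives mitosis, and for Prc1, which bundles spindle microtubules. These were chosen after their values were seen because they hold both motifs. Sequences run 5′ to 3′ on the gene's strand, and capitals mark CCAAT and TTTGAA on either strand, where they read ATTGG and TTCAAA if reversed. The windows are chr11:99024190-99024439 on the minus strand for Top2a, chr10:69352913-69353162 on the minus strand for Cdc2a and chr7:80294226-80294475 on the plus strand for Prc1.
Top2a: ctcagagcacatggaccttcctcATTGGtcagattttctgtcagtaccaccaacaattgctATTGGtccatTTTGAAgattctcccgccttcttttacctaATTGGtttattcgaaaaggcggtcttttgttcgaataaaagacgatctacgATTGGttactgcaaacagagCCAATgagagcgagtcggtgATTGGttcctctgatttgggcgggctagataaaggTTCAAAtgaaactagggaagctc
Cdc2a: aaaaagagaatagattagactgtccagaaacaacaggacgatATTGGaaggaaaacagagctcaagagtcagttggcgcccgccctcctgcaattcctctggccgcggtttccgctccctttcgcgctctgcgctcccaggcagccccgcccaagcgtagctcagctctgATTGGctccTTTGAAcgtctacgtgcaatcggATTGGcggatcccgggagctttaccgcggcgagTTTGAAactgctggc
Prc1: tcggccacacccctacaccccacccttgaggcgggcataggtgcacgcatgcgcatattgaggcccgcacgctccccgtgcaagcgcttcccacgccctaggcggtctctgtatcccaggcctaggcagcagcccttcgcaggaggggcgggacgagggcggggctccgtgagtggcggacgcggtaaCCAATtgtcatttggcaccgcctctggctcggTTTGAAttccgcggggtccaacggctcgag
Cdc2a changed by 0.93 (0.26 at 96 h, -0.67 at 24 h) and Prc1 by 0.53 (0.04 and -0.48), both called. Of the 25 mitosis genes with a promoter in the table, 84% held CCAAT and 40% TTTGAA in these 250 bases, and 36% held both. Among all 27025 genes with a window the shares were 37.5%, 18.3% and 6.45%. A match of letters describes the window and is not a measured binding site.

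DNA replication genes followed with smaller values. Of 31 tested, 8 had a higher effect at 96 h and 0 a lower one (median change 0.43). At 96 h 1 was called, higher, and at 24 h 14 were lower. Tk1, the thymidine kinase of S phase, read 9.09, 9.17, 9.29 and 9.14 in irradiated organoids at 96 h, against 8.94, 8.92, 8.77 and 8.56 in controls at 96 h. At 24 h Tk1 read 8.10, 8.07, 8.0 and 8.20 in irradiated organoids, against 9.07, 8.90, 9.19 and 9.11 in controls. All irradiated arrays were above all controls at 96 h and below all controls at 24 h, so its effect turned over, 0.37 at 96 h (adjusted p = 0.0301) and -0.97 at 24 h (adjusted p = 2e-07). The change of 1.35 (SE 0.14, limma adjusted p = 4.5e-06) was called in the other probe of Tk1 as well (1.10, adjusted p = 0.00158). Rfc3, a subunit of the clamp loader, changed by 0.98 (adjusted p = 0.00105). Mcm5, a subunit of the replicative helicase, was not called (0.27, adjusted p = 0.225), nor at either time. Without irradiated 24 h replicates 3 and 4 the count was 4, and without the 5 arrays with the fewest detected probes 2. Of 22 DNA repair genes, 3 had a higher effect at 96 h (median 0.32), among them the histone variant gene H2afx by 0.66. Of 16 ribosome biogenesis genes 5 did (median 0.55), with nucleolin, Ncl, at 0.55 (adjusted p = 0.00593), and 3 without control 24 h replicate 4.

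Crypt base genes were lower at 24 h and mostly back at control level at 96 h, with Lgr5 as an exception that was still lower. Of 18 tested, 8 had a higher effect at 96 h and 1 a lower one, with a median change of 0.62. At 96 h 1 was called, lower, and at 24 h 12 were lower and 1 was higher. Lgr5, a receptor for R-spondin carried by stem cells of the crypt, read 8.23, 8.13, 8.19 and 8.10 in irradiated organoids at 96 h, against 8.57, 9.08, 8.48 and 8.50 in controls at 96 h. At 24 h Lgr5 read 6.70, 6.63, 6.45 and 6.88 in irradiated organoids, against 8.35, 8.13, 8.10 and 8.01 in controls. Irradiated arrays were below all controls at both times, by a narrower gap at 96 h. The effect was -0.50 at 96 h (adjusted p = 0.023) and -1.48 at 24 h (adjusted p = 1.76e-08), a change of 0.98 (SE 0.18, limma adjusted p = 0.00103).

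Olfm4, a secreted glycoprotein of crypt base cells, read 11.62, 11.40, 11.47 and 11.49 in irradiated organoids at 96 h, against 11.52, 11.84, 11.37 and 11.43 in controls at 96 h. At 24 h Olfm4 read 9.95, 9.87, 9.96 and 10.03 in irradiated organoids, against 11.33, 11.05, 11.28 and 11.23 in controls. Its groups overlapped at 96 h and were apart at 24 h, and the effect changed by 1.23 (SE 0.14, adjusted p = 1.08e-05). Among the largest positive changes were those of Clca4 (1.69), Dmbt1 (1.45), a scavenger receptor gene of the mucosa, and Slc16a12 (1.38), a member of the monocarboxylate transporter family. At 96 h none of these 3 was called, although Slc16a12 was lower on all irradiated arrays (7.66 to 7.86) than on all controls (7.99 to 8.29). Ascl2, a transcription factor that maintains the stem cell state, went against the list: it read 6.48, 6.58, 6.59 and 6.30 in irradiated organoids at 96 h, against 6.27, 6.02, 6.47 and 6.27 in controls at 96 h. At 24 h its irradiated arrays stood high, at 7.64, 8.18, 8.09 and 7.62, against 5.86, 6.15, 5.88 and 5.85 in controls. Its change of effect was -1.71 (SE 0.20, adjusted p = 1.08e-05). Axin2, a feedback target of Wnt signalling, was not called (0.42, adjusted p = 0.0905), but it was without control 24 h replicate 2 (0.51, adjusted p = 0.0395) or control 96 h replicate 1 (0.52, adjusted p = 0.0309).

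**Figure D2:**
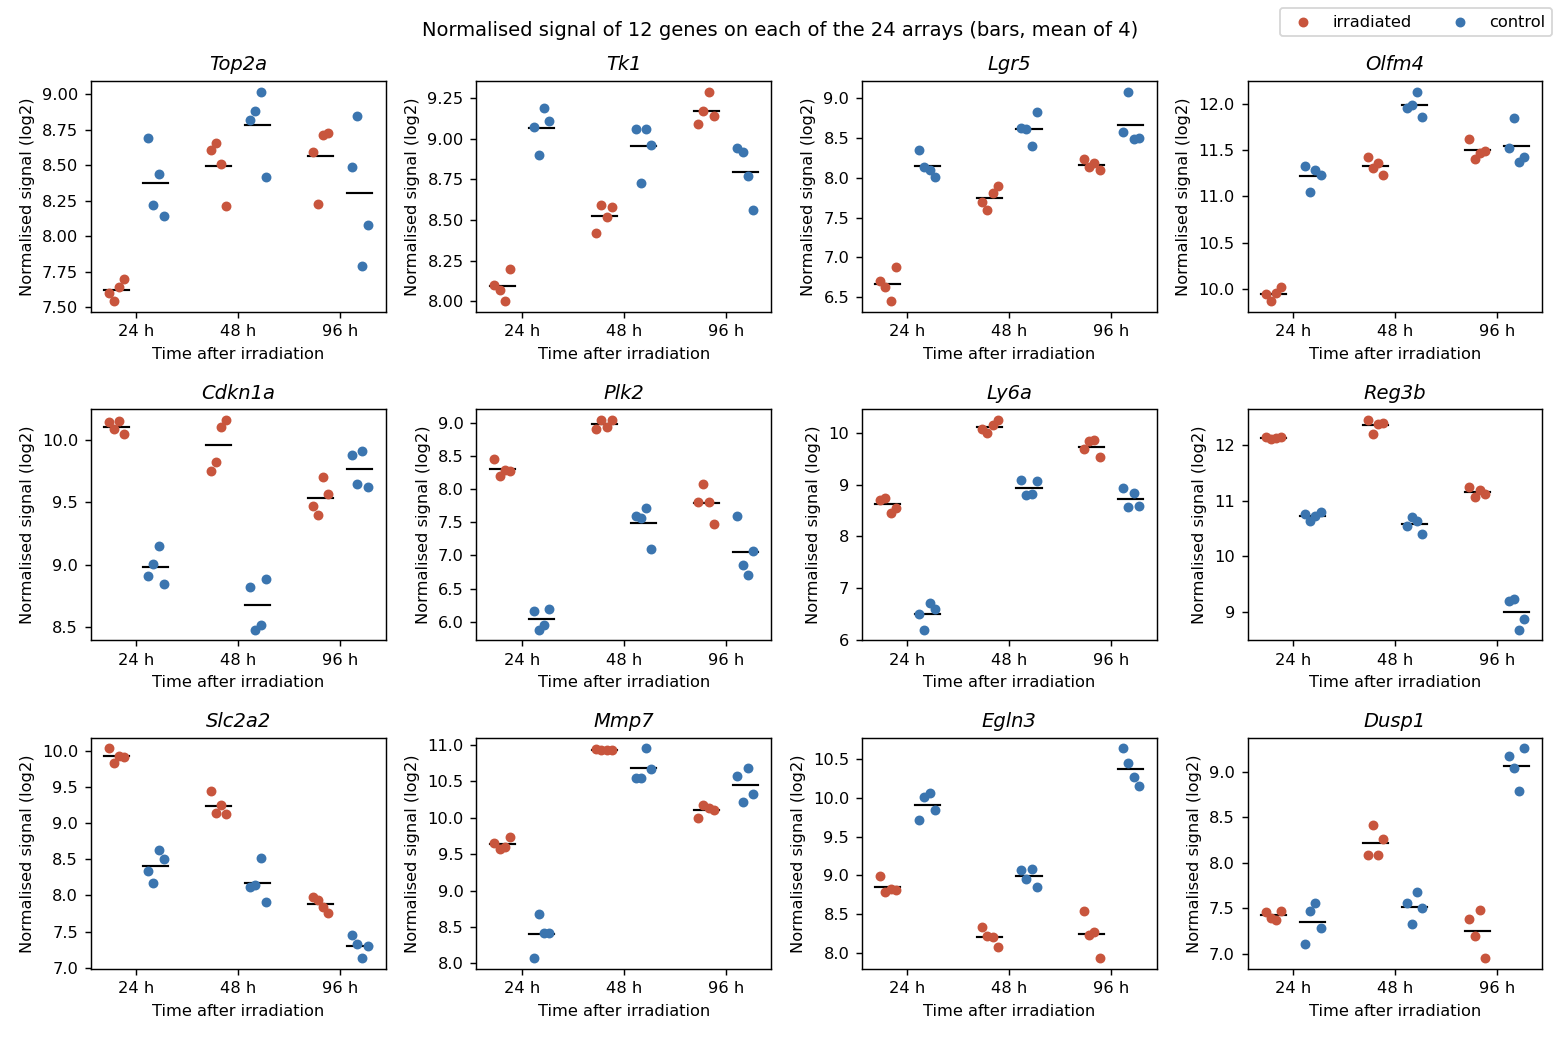
Normalised log2 signal of 12 genes on every array by time after irradiation, irradiated organoids in red and controls in blue, with the mean of 4 arrays as a bar; the 48 h arrays did not enter the change of effect. The plot shows Top2a and Olfm4 apart at 24 h and overlapping at 96 h, Lgr5, Ly6a, Reg3b, Slc2a2 and Egln3 apart at both times, and Dusp1 with controls at 8.79 to 9.26 at 96 h, above the irradiated arrays.

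The p53 targets were high at 24 h and had largely lost that difference at 96 h. Of 34 tested, the effect was lower at 96 h in 17 and higher in 2, with a median change of -0.61. At 96 h 5 were higher and 1 lower (median effect 0.12), against 26 and 2 at 24 h (median 0.86). Cdkn1a, the inhibitor p21 that carries out p53-dependent arrest, read 9.47, 9.40, 9.70 and 9.57 in irradiated organoids at 96 h, against 9.88, 9.65, 9.91 and 9.62 in controls at 96 h. At 24 h Cdkn1a read 10.14, 10.09, 10.15 and 10.05 in irradiated organoids, against 8.91, 9.01, 9.15 and 8.85 in controls. The groups overlapped at 96 h and were apart at 24 h. The effect changed by -1.36 (SE 0.17, limma adjusted p = 1.62e-05). Between 96 h and 24 h irradiated organoids differed by -0.57 and controls by 0.78. Of its other probes, 1 was called (-1.65) and 1 was not (-1.12, adjusted p = 0.0899).

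Plk2, a polo-like kinase induced by p53, read 7.81, 8.08, 7.80 and 7.47 in irradiated organoids at 96 h, against 7.59, 6.86, 6.71 and 7.06 in controls at 96 h. At 24 h Plk2 read 8.46, 8.19, 8.29 and 8.27 in irradiated organoids, against 6.16, 5.88, 5.95 and 6.20 in controls. A single control array reached into the irradiated range at 96 h. The effect remained called at 96 h, 1.67-fold higher, against 4.77-fold at 24 h (change -1.52, SE 0.23, adjusted p = 0.000142). Phlda3, which restrains Akt, changed by -1.33 (other probe -0.63, not called) and Dcxr by -1.44 (other probe -0.72, called). Ddit4l, an mTOR inhibitor gene, was not detected in controls at 24 h and was at least 2.85-fold higher in irradiated organoids. Among death effectors, Bax changed by -0.52 (adjusted p = 0.0125) and Bbc3, which encodes Puma, by -1.06 (adjusted p = 0.0163), though its 2 other probes were not called. For 2 feedback genes the probes disagreed. Mdm2, the ligase that degrades p53, had a change of -0.44 in its brightest probe (adjusted p = 0.154), but 1 of its other probes was called (-0.58, adjusted p = 0.0161). Ccng1, cyclin G1, had -0.47 in its brightest probe (adjusted p = 0.0813), and 1 of its other probes was called (-0.76, adjusted p = 0.00486). Ccng1 was still higher at 96 h (0.65, adjusted p = 0.0017) and at 24 h (1.12), and the change in its brightest probe was called without control 96 h replicate 3 (-0.56, adjusted p = 0.0421). With median scaling 6 of the 34 had a lower effect at 96 h, and Bax (-0.40, adjusted p = 0.321) and Bbc3 (-0.81, adjusted p = 0.152) were not called.

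Genes of the fetal-like epithelium stayed higher in irradiated organoids at 96 h, with smaller differences for some. Of 21 tested, 14 were higher at 96 h (median effect 0.79) and 14 at 24 h (median 1.18). The effect was lower at 96 h in 5 and higher in 1. Ly6a, which encodes the surface protein Sca-1 and marks regenerating crypts, read 9.69, 9.85, 9.86 and 9.53 in irradiated organoids at 96 h, against 8.94, 8.57, 8.83 and 8.58 in controls at 96 h. At 24 h Ly6a read 8.71, 8.75, 8.46 and 8.54 in irradiated organoids, against 6.50, 6.19, 6.71 and 6.59 in controls. Irradiated arrays were above all controls at both times. The effect was 1.00 at 96 h and 2.12 at 24 h (change -1.12, SE 0.17, limma adjusted p = 0.000194). Both arms were brighter at 96 h than at 24 h, irradiated organoids by 1.12 and controls by 2.23. Anxa1, an annexin with anti-inflammatory action, had the same shape (1.12 at 96 h, 1.88 at 24 h, change -0.76, adjusted p = 0.00143). Mcam, a cell adhesion molecule, was 2.18-fold higher at 96 h and 4.92-fold at 24 h (change -1.18, adjusted p = 0.0203), and both of its other probes were called. With median scaling 0 of the 21 were called, with Ly6a at -0.83 (adjusted p = 0.0904), Anxa1 at -0.53 (0.206) and Mcam at -0.86 (0.158). Anxa1 was not called without background correction either (-0.20, adjusted p = 0.226), nor with the values processed by the authors.

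Areg encodes amphiregulin, which activates the EGF receptor and is a target of YAP. Areg read 9.64, 9.98, 10.0 and 9.69 in irradiated organoids at 96 h, against 9.44, 9.14, 9.0 and 9.16 in controls at 96 h. At 24 h Areg read 10.67, 10.71, 10.74 and 10.86 in irradiated organoids, against 8.48, 8.48, 8.52 and 8.44 in controls. The groups were apart at both times, by less at 96 h. It was 1.56-fold higher at 96 h and 4.81-fold at 24 h (change -1.63, SE 0.17, adjusted p = 4.5e-06). Of 7 YAP targets 3 had a lower effect at 96 h (median -0.62). F3, tissue factor, was not detected in controls at 24 h and was at least 2-fold higher there in irradiated organoids.

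Genes of inflammation and host defence went both ways, and Reg3b had a larger irradiation effect at 96 h. Of 12 genes of inflammation and host defence, 3 had a higher effect at 96 h and 4 a lower one. Reg3b, an antimicrobial lectin, read 11.25, 11.06, 11.19 and 11.12 in irradiated organoids at 96 h, against 9.19, 9.23, 8.68 and 8.87 in controls at 96 h. At 24 h Reg3b read 12.14, 12.10, 12.13 and 12.15 in irradiated organoids, against 10.76, 10.63, 10.72 and 10.80 in controls. All irradiated arrays were above all controls at both times. It was 4.48-fold higher at 96 h and 2.64-fold at 24 h (change 0.76, SE 0.15, limma adjusted p = 0.002), and its other probe was called (0.55, adjusted p = 0.0317). Between 96 h and 24 h irradiated organoids differed by -0.97 and controls by -1.74. Ccl28, a chemokine of mucosal epithelia, was 1.13-fold lower at 96 h, not called, and 2.31-fold lower at 24 h (change 1.03, adjusted p = 4.87e-05). Median scaling ended the call of Reg3b (0.79, adjusted p = 0.0685), as did the removal of the 5 arrays with the fewest detected probes. Leaving out control 24 h replicate 2, control 96 h replicate 4 or irradiated 96 h replicate 3 left 2 of the 12 with a lower effect.

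Enterocyte genes were higher in irradiated organoids at 24 h, and the difference had shrunk or turned at 96 h. Of 35 tested, the effect was lower at 96 h in 20 and higher in 0, with a median change of -0.59. At 96 h 6 were higher and 3 lower (median effect 0.16), and at 24 h 29 were higher and 0 lower (median 0.70). Slc2a2, the basolateral glucose transporter, read 7.98, 7.94, 7.84 and 7.75 in irradiated organoids at 96 h, against 7.45, 7.33, 7.13 and 7.30 in controls at 96 h. At 24 h Slc2a2 read 10.03, 9.83, 9.92 and 9.91 in irradiated organoids, against 8.34, 8.17, 8.62 and 8.50 in controls. The groups were apart at both times, and the effect was 0.57 at 96 h and 1.52 at 24 h (change -0.94, SE 0.17, limma adjusted p = 0.000871). Of the other 2 probes of Slc2a2, 1 was called (-1.26) and 1 was not (-0.97, adjusted p = 0.112).

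Espn, which encodes espin, a protein that bundles actin, read 5.94, 5.43, 5.13 and 5.03 in irradiated organoids at 96 h, against 6.91, 6.84, 7.08 and 6.93 in controls at 96 h. At 24 h Espn read 7.27, 7.49, 6.72 and 6.94 in irradiated organoids, against 6.47, 6.86, 6.68 and 6.64 in controls. It was below controls at 96 h, where 2 of 4 irradiated arrays detected it, and overlapped with them at 24 h (change -2.0, SE 0.25, adjusted p = 2.23e-05). Of its other probes, 1 was called (-1.64) and 1 was not (0.07). Fabp1, a fatty acid binding protein, was 1.35-fold lower at 96 h, not called, and 1.71-fold higher at 24 h (change -1.21, adjusted p = 0.00109). The brush border protease gene Mep1a changed by -1.54 (adjusted p = 0.00206) and the sterol transporter gene Abcg8 by -1.28 (adjusted p = 0.000198). Along the arms, enterocyte genes differed between 96 h and 24 h by a median of -1.17 in irradiated organoids, with 32 of 35 called lower (15.1% of all genes), and by -0.58 in controls, with 21 called lower (5.68% of all genes). With median scaling 4 of the 35 had a lower effect at 96 h, and Slc2a2 was not called (-0.66, adjusted p = 0.167).

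Xenobiotic metabolism genes, many of which enterocytes express, mostly had a lower effect at 96 h, and fewer antioxidant and fatty acid oxidation genes did. Of 25 xenobiotic metabolism genes 14 had a lower effect at 96 h and 0 a higher one (median -0.52). At 96 h 4 were higher and 2 lower, and at 24 h 20 were higher. Ugt2b5, a glucuronosyltransferase, changed by -1.46 (adjusted p = 5.58e-05) and the cytochrome gene Cyp2c55 by -1.15 (adjusted p = 0.00024). Cyp2c55 was lower at 96 h (-0.63) and higher at 24 h (0.53), called in both directions. Without the 5 arrays with the fewest detected probes 6 of the 25 were called, and 2 with median scaling. Of 22 NRF2 antioxidant genes 5 had a lower effect at 96 h and 1 a higher one, with 0 to 1 higher and 2 to 5 lower when any single array was left out. Hmox1, heme oxygenase, read 6.14, 6.67, 6.17 and 6.38 in irradiated organoids at 96 h, against 6.17, 6.16, 6.65 and 6.91 in controls at 96 h. At 24 h Hmox1 read 7.96, 8.35, 8.63 and 8.33 in irradiated organoids, against 5.88, 6.39, 6.06 and 6.09 in controls. Its groups overlapped at 96 h and were far apart at 24 h, with a change of -2.35 (SE 0.28, limma adjusted p = 1.24e-05). Of 21 genes of fatty acid oxidation 4 had a lower effect at 96 h, among them Ehhadh, a peroxisomal enzyme, which was lower at 96 h (-0.37) and higher at 24 h (0.55).

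**Figure D3:**
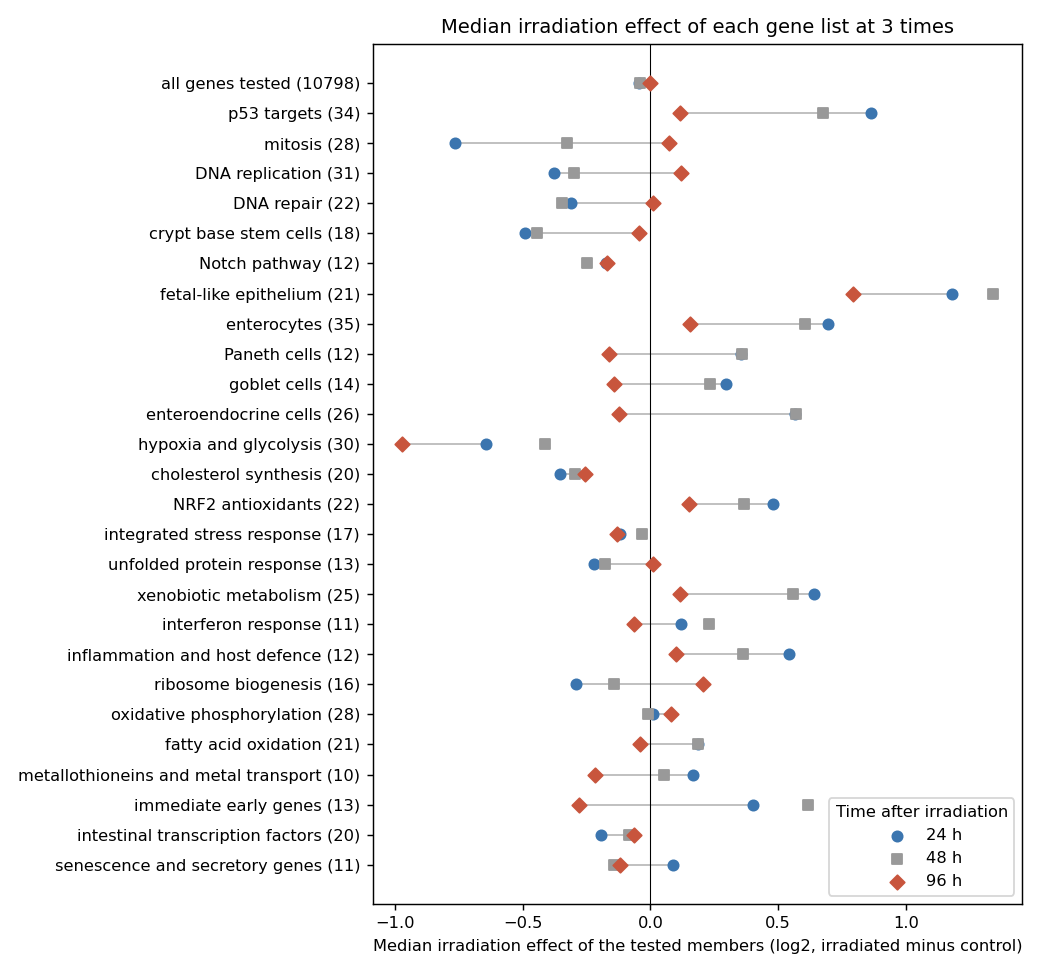
Median irradiation effect (log2 irradiated minus control) of each gene list with at least 10 tested members, at 24, 48 and 96 h. The number of tested members is in brackets, and all 10798 genes are in the top row. Medians of p53 targets lie at 0.86, 0.68 and 0.12 and of mitosis genes at -0.76, -0.33 and 0.07, while the fetal-like list stays at 1.18, 1.34 and 0.79 and hypoxia and glycolysis lies at -0.64, -0.41 and -0.97.

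Part of the Paneth, enteroendocrine and goblet cell genes were higher in irradiated organoids at 24 h, and most were not called at 96 h. Of 12 Paneth cell genes 7 had a lower effect at 96 h (median change -0.57). At 96 h 1 was higher and 3 lower, and at 24 h 7 were higher and 1 lower. Mmp7, the protease that activates Paneth cell defensins, read 9.99, 10.18, 10.13 and 10.11 in irradiated organoids at 96 h, against 10.57, 10.22, 10.68 and 10.32 in controls at 96 h. At 24 h Mmp7 read 9.65, 9.57, 9.60 and 9.74 in irradiated organoids, against 8.07, 8.68, 8.42 and 8.42 in controls. Irradiated arrays were below all controls at 96 h, a difference that was not called, and above all at 24 h (change -1.58, SE 0.17, limma adjusted p = 7e-06). Irradiated organoids were 0.47 brighter at 96 h than at 24 h, and controls 2.05. Lyz1, lysozyme of Paneth cells, was called in both directions, -0.32 at 96 h and 0.36 at 24 h, but its other probe was not called (-0.57, adjusted p = 0.0654). Whether its paralogue Lyz2 shared signal was not tested. Lyz2 was detected on 1 control array at 96 h and on 0 arrays of the other groups. Ang4, an antimicrobial ribonuclease, changed by -0.95 (adjusted p = 0.000214). Over the list, irradiated organoids differed by a median of 0.14 between 96 h and 24 h, with 1 called higher and 1 lower, and controls by 0.66, with 8 of 12 called higher (6.74% of all genes).

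Of 26 enteroendocrine genes 9 had a lower effect at 96 h (median change -0.64). At 96 h 1 was higher and 1 lower, and at 24 h 12 were higher. Gcg, which encodes proglucagon, read 8.88, 8.66, 8.69 and 8.72 in irradiated organoids at 96 h, against 9.04, 9.11, 8.75 and 8.75 in controls at 96 h. At 24 h Gcg read 9.73, 9.55, 9.75 and 9.87 in irradiated organoids, against 8.50, 8.40, 8.53 and 8.48 in controls. The groups overlapped at 96 h and were apart at 24 h (change -1.42, SE 0.17, adjusted p = 1.24e-05). Cck, cholecystokinin, was 1.09-fold higher at 96 h, not called, and 2.53-fold at 24 h (change -1.21, adjusted p = 1.62e-05). Sct, secretin, was 2.15-fold lower at 96 h and 1.33-fold higher at 24 h, not called (change -1.52, adjusted p = 0.00865). Chga, the granule protein chromogranin A, was not called (-0.41, adjusted p = 0.625). Over this list, irradiated organoids differed by a median of 0.03 between 96 h and 24 h, with 8 called higher and 4 lower, and controls by 0.80, with 18 of 26 called higher. Gcg itself differed by -0.98 in irradiated organoids and by 0.44 in controls.

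Of 14 goblet cell genes 4 had a lower effect at 96 h (median -0.40). At 96 h 3 were higher and 0 lower than in controls, and at 24 h 7 were higher and 1 lower. Guca2a, guanylin, changed by -0.89 (adjusted p = 0.000306). Clca3, now Clca1, a goblet cell metalloprotease, was still 0.92 higher at 96 h, against 1.67 at 24 h (change -0.76, adjusted p = 0.0207). Without irradiated 24 h replicates 3 and 4, 1 of the 14 had a lower effect at 96 h, and Clca3 was not called (-0.72, adjusted p = 0.07). Of 15 tuft cell markers 6 were tested, and 2 had a lower effect at 96 h. Against controls, 2 tuft cell markers were lower at 96 h, and 1 was higher at 24 h. With median scaling the counts with a lower effect at 96 h were 3 for Paneth, 3 for enteroendocrine and 1 for goblet cells.

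Hypoxia and glycolysis genes were lower in irradiated organoids at both times, and more so at 96 h. Of 30 tested, 28 were lower at 96 h and 22 at 24 h, with median effects of -0.97 and -0.64. The effect was lower at 96 h in 8 and higher in 0 (median change -0.25), and in 5 without control 24 h replicate 1. Egln3, a prolyl hydroxylase that marks hypoxia-inducible factor (HIF) for degradation and is itself its target, read 8.54, 8.23, 8.27 and 7.93 in irradiated organoids at 96 h, against 10.64, 10.45, 10.27 and 10.15 in controls at 96 h. At 24 h Egln3 read 8.99, 8.78, 8.83 and 8.81 in irradiated organoids, against 9.71, 10.01, 10.07 and 9.85 in controls. Irradiated arrays were below all controls at both times, by a wider gap at 96 h. It was 4.39-fold lower at 96 h and 2.08-fold lower at 24 h (change -1.08, SE 0.18, limma adjusted p = 0.000299). Its irradiated arm differed by -0.61 between 96 h and 24 h, and its control arm by 0.47. Aldoc, an aldolase of glycolysis, was 2.65-fold lower at 96 h and 1.37-fold lower at 24 h (change -0.95, adjusted p = 0.000275). Adm, the vasoactive peptide adrenomedullin, was not detected in irradiated organoids at 96 h and at least 1.29-fold lower than in controls there; it was detected in neither group at 24 h. Ankrd37, another HIF target, had effects of -1.94 at 96 h and -2.02 at 24 h, with a change of 0.08 (SE 0.24, adjusted p = 0.877). Median scaling left 1 of the 30 with a lower effect, and Egln3 (-0.81, adjusted p = 0.102) and Aldoc (-0.58, adjusted p = 0.218) were not called.

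HIF binds a hypoxia response element with the core ACGTG, and the 250 bases before the start of Egln3 and of Ak3l1, now Ak4, an adenylate kinase of mitochondria, are shown with that core in capitals, reading CACGT where reversed. Ak3l1 had effects of -2.0 at 96 h and -1.84 at 24 h, with no call on the change (-0.16). Both were chosen after their values were seen. The windows (RefSeq, GRCm38.p6) are chr12:54203875-54204124 on the minus strand and chr4:101419453-101419702 on the plus strand.
Egln3: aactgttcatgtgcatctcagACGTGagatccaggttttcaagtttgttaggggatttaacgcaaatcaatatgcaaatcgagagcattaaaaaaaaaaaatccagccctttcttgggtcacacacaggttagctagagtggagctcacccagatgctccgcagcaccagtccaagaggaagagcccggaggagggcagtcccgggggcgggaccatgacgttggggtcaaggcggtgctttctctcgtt
Ak3l1: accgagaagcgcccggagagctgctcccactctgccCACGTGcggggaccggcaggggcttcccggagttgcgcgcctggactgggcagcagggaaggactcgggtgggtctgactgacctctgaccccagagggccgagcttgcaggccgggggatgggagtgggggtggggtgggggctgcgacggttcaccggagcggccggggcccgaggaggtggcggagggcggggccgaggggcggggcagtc
In Ak3l1 the core lies on both strands, overlapping. Of the 28 members with a promoter in the table, 64.3% held the core on either strand, against 18.5% of all 27025 genes.

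Immediate early genes, which respond to growth factors and stress within minutes, had lower effects at 96 h in 7 of 13 cases (median -0.58). At 96 h 1 was higher and 2 lower, and at 24 h 6 were higher. Dusp1, a phosphatase that switches off MAP kinases, read 7.38, 7.19, 7.48 and 6.95 in irradiated organoids at 96 h, against 9.18, 9.05, 8.79 and 9.26 in controls at 96 h. At 24 h Dusp1 read 7.46, 7.39, 7.37 and 7.47 in irradiated organoids, against 7.11, 7.47, 7.56 and 7.28 in controls. Of the 4 groups only controls at 96 h stood apart, on the high side. The gene was 3.53-fold lower at 96 h and was not called at 24 h (change -1.89, SE 0.18, limma adjusted p = 2.41e-06). Egr2, a zinc finger factor, changed by -1.33 (adjusted p = 0.00782), with groups that overlapped at both times. Without the 5 arrays with the fewest detected probes Egr2 was not called (adjusted p = 0.161). Over the immediate early list, irradiated organoids differed by a median of -0.11 between 96 h and 24 h, and controls by 0.64. With median scaling 3 of the 13 had a lower effect at 96 h, and without the same 5 arrays 4 did.

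A smaller set of genes had an irradiation effect at 96 h only, or in opposite directions at the 2 times. Slc30a10, a manganese exporter, read 6.06, 5.30, 4.99 and 4.88 in irradiated organoids at 96 h, against 7.61, 7.37, 7.18 and 7.14 in controls at 96 h. At 24 h Slc30a10 read 8.01, 8.08, 7.85 and 7.67 in irradiated organoids, against 7.64, 7.71, 7.88 and 7.56 in controls. It was 4.06-fold lower at 96 h, where 2 of 4 irradiated arrays detected it, and not called at 24 h (change -2.23, SE 0.27, limma adjusted p = 1.62e-05). Of the 37 genes lower at 96 h and higher at 24 h, Cml4, now Nat8, an acetyltransferase, had the largest change among those named by the rule. It read 6.78, 6.67, 5.67 and 6.04 in irradiated organoids at 96 h, against 7.73, 7.19, 7.34 and 7.21 in controls at 96 h. At 24 h Cml4 read 9.63, 9.34, 9.65 and 9.73 in irradiated organoids, against 8.40, 8.38, 8.66 and 8.58 in controls. Its groups did not overlap at either time, and it was 2.11-fold lower at 96 h and 2.11-fold higher at 24 h (change -2.16, adjusted p = 6.18e-05). Listed as Mir16 is a protein gene now named Gde1, not a microRNA, which encodes a glycerophosphodiester phosphodiesterase. It was 1.96-fold lower at 96 h and 1.88-fold higher at 24 h (adjusted p = 1.04e-05). Tnrc4, now Celf3, an RNA-binding protein gene, was 1.89-fold lower and 1.74-fold higher (adjusted p = 2.23e-05).

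Of the genes called in the same direction at both times with a changed effect, 33 were higher and less so at 96 h, 11 were lower and more so at 96 h, 3 were higher and more so, and 3 lower and less so. Ctrb1, a chymotrypsinogen, read 6.41, 6.14, 5.98 and 6.18 in irradiated organoids at 96 h, against 8.26, 8.06, 8.27 and 8.62 in controls at 96 h. At 24 h Ctrb1 read 8.21, 8.0, 8.43 and 8.14 in irradiated organoids, against 8.79, 8.90, 9.09 and 8.78 in controls. It was 4.37-fold lower at 96 h and 1.62-fold lower at 24 h (change -1.43, SE 0.20, limma adjusted p = 5.9e-05), with no overlap at either time. Lgr5 and Reg3b, described above, were among the 6 with a higher effect.

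The 12 most negative changes were taken among genes detected on at least 2 arrays of every group, clone-type names left out. They came from genes that were high in irradiated organoids at 24 h and not called at 96 h. At 48 h, which did not enter the choice, 11 of the 12 were still called higher, with effects of 0.66 to 1.24, and Lce1i was not (0.80, adjusted p = 0.0662). They were Cxcr5, Cacna1f, Stk10, V1rh21, H2-T10, Lce1i, Abca8b, Mapk15, Fmnl3, Hmox1, Ube2j2 and Duxbl, with changes of -2.98 to -2.31. Except for Hmox1 they belong to no list used here, and they include a B cell chemokine receptor (Cxcr5), a calcium channel subunit of the retina (Cacna1f) and a vomeronasal receptor (V1rh21). Cxcr5 read 5.88, 6.32, 5.71 and 5.35 in irradiated organoids at 96 h, against 6.13, 5.45, 5.78 and 6.24 in controls at 96 h. At 24 h Cxcr5 read 8.45, 7.95, 8.66 and 8.41 in irradiated organoids, against 5.34, 5.78, 5.46 and 5.33 in controls. Irradiated arrays at 24 h stood above all others, including irradiated organoids at 48 h (6.62 to 7.4) (change -2.98, SE 0.30, limma adjusted p = 2.41e-06). The mean of the 12 genes was 6.32 to 6.91 in irradiated organoids at 96 h, against 6.08 to 6.89 in controls at 96 h. At 24 h it was 8.63 to 8.95 in irradiated organoids, against 5.89 to 6.27 in controls. The 2 irradiated 24 h arrays with 12941 and 12415 detected probes had means of 8.66 and 8.73, and those with 9738 and 10783 had 8.95 and 8.63. Other probes disagreed for some: for Abca8b (-0.47, adjusted p = 0.533), Ube2j2 (0.28, adjusted p = 0.644) and both others of Fmnl3 (-0.46 and -0.48) the change was not called, while the other probe of Duxbl was (-2.35). Mbl2, a lectin that activates complement, was not detected in controls at 24 h and was at least 5.33-fold higher there in irradiated organoids. At 96 h it was not called (adjusted p = 0.0519) and its groups overlapped.

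**Figure D4:**
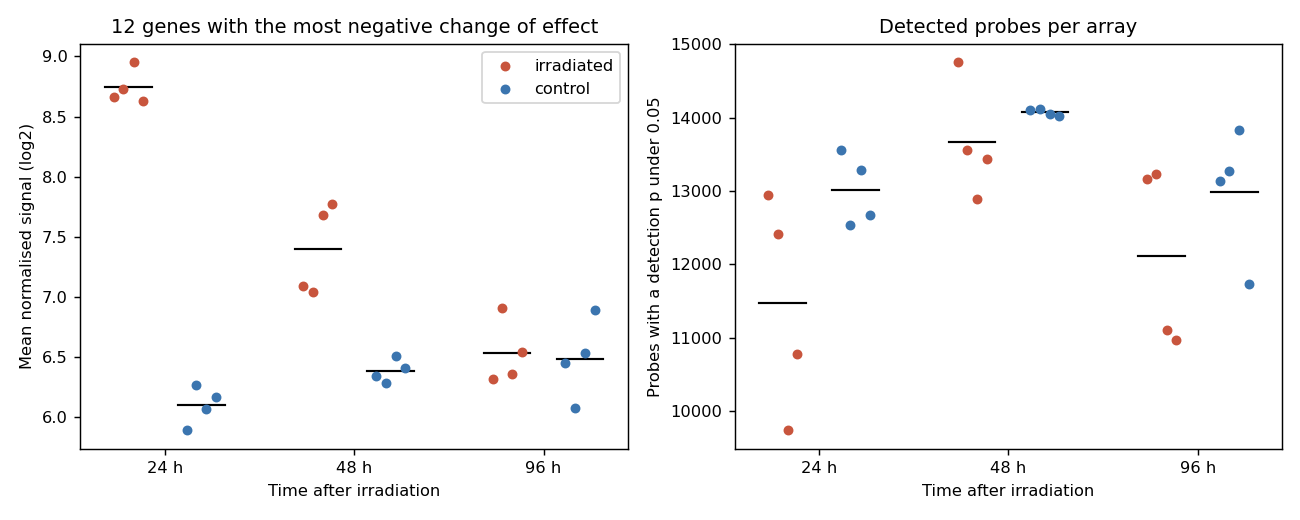
Left, mean normalised log2 signal on each array of the 12 genes with the most negative change of effect, clone-type names left out. Right, number of probes detected on each array at a p under 0.05. Irradiated organoids are in red and controls in blue, with bars at the mean of 4. The 4 irradiated arrays at 24 h lie between 8.63 and 8.95 in the left plot, above all other arrays, as the choice of the genes by their change favours, and their detected probes range from 9738 to 12941.

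Among the 12 most positive changes, taken by the same rule, Cdc25c, Clca4, Dmbt1, Slc16a12 and Tk1 have been described. Aqp4, a water channel of crypt cells, read 8.74, 8.48, 8.67 and 8.45 in irradiated organoids at 96 h, against 8.62, 8.83, 8.35 and 8.63 in controls at 96 h. At 24 h Aqp4 read 7.27, 7.29, 7.11 and 7.39 in irradiated organoids, against 8.77, 8.74, 8.73 and 8.62 in controls. It overlapped with controls at 96 h and was below all of them at 24 h (change 1.43, SE 0.16, limma adjusted p = 9.85e-06). Mycl1, a Myc family factor, changed by 1.32 (adjusted p = 0.000327) and Shmt1, an enzyme of folate metabolism, by 1.28 (adjusted p = 0.00128).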

How the data were processed

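RNA of 24 organoid samples was hybridised to 3 Illumina BeadChips, 1 per time. The deposited table holds the authors' probe intensity, not normalized per the file headers, and a detection p-value for each of 25697 probes. The authors' scanner software and its version are not given in the sources used here. A second deposited table of intensity, processed by the authors, was used as an alternative. Here neqc of limma 3.58.1 (R 4.3.3) corrected the background from the detection p-values, quantile normalized all 24 arrays and took log2 with an offset of 16. Probes with a detection p under 0.05 on 4 or more arrays entered the fit, 15056 in all, and the brightest stood for each of 10798 genes. Of 18138 symbols in the table, 14307 equal a current RefSeq symbol. limma fitted 1 mean per group to 24 arrays, and the change of effect was tested two-sided with Benjamini-Hochberg adjustment over all genes at 0.05. The number of arrays limits the precision. The test was tested on simulated data. An undetected group was replaced by the lowest detected signal, per array, for an "at least" fold. Named genes were the 12 largest changes per direction, up to 4 per pattern of calls and up to 3 per list. A set of known genes and up to 4 per direction among genes undetected in a group were added. Clone-type names (Rik, LOC, Gm or accession-like) were left out, except from the lists and the known genes. Such names made up 49 of the 486 genes with a higher and 104 of the 745 with a lower effect. Members and lists were chosen with earlier results of these data known. Alternatives covered scaling, background, filters, probe choice, arrays left out, array weights and the replicate block. Some named genes are not reported here.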

Additional observations from a re-analysis of the deposited data

Results flagged for a closer look

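The irradiation effect itself differed between the times, by limma's test of that difference, in 486 genes that were higher at 96 h than at 24 h and in 745 that were lower. Single arrays that stood apart from the other 3 of their group by Dixon's criterion were found in 33 of 520 groups of 4 arrays of the genes named by the rule (6.35%, where chance gives about 1 in 20). Values are normalised log2 signals, each with the range of the other 3 arrays. Atf3 in replicate 2 (5.23, others 4.67 to 4.76), Cacna1f in replicate 1 (4.99, others 6.41 to 6.58) and Cbx5 in replicate 4 (8.63, others 8.34 to 8.38) stood apart in irradiated organoids at 96 h. Ccna2 in replicate 2 (9.85, others 9.26 to 9.34), Dmbt1 in replicate 1 (10.84, others 10.74 to 10.75) and H2-T10 in replicate 2 (7.22, others 6.24 to 6.41) stood apart in irradiated organoids at 96 h. Mcm5 in replicate 3 (10.7, others 10.8 to 10.8) and Nrn1 in replicate 1 (4.99, others 4.55 to 4.6) stood apart in irradiated organoids at 96 h. Srxn1 in replicate 2 (8.82, others 9.2 to 9.25) stood apart in irradiated organoids at 96 h. Cbx5 in replicate 1 (7.3, others 8.37 to 8.44), Chga in replicate 1 (8.92, others 10.35 to 10.63) and Depdc1a in replicate 4 (5.09, others 5.73 to 5.83) stood apart in control organoids at 96 h. Lgr5 in replicate 2 (9.08, others 8.48 to 8.57) and Upk3b in replicate 1 (7.96, others 8.63 to 8.68) stood apart in control organoids at 96 h. Acaa1b in replicate 3 (10.51, others 10.58 to 10.59), Acaa2 in replicate 2 (10.42, others 10.48 to 10.49) and Ankrd37 in replicate 1 (6.97, others 7.38 to 7.42) stood apart in irradiated organoids at 24 h. Anxa1 in replicate 3 (7.32, others 7.55 to 7.58), Cdca8 in replicate 2 (8.21, others 7.41 to 7.54) and Chga in replicate 2 (10.2, others 9.62 to 9.64) stood apart in irradiated organoids at 24 h. Cyp2c55 in replicate 2 (10.21, others 10.04 to 10.05), Edem1 in replicate 1 (7.98, others 7.42 to 7.51) and Lce1i in replicate 2 (8.59, others 8.1 to 8.16) stood apart in irradiated organoids at 24 h. Mep1a in replicate 2 (8.84, others 8.45 to 8.5), Sct in replicate 2 (9.69, others 9 to 9.08) and Slc40a1 in replicate 4 (9, others 8.84 to 8.85) stood apart in irradiated organoids at 24 h. Ascl2 in replicate 2 (6.15, others 5.85 to 5.88), Dcxr in replicate 1 (6.83, others 6.99 to 7.01) and Ddit4l in replicate 2 (5.13, others 4.55 to 4.64) stood apart in control organoids at 24 h. Dnajb9 in replicate 2 (9.79, others 9.66 to 9.67), Lce1i in replicate 1 (5.26, others 5.83 to 5.88) and Sftpd in replicate 3 (4.47, others 4.71 to 4.74) stood apart in control organoids at 24 h. Topbp1 in replicate 2 (7.89, others 8.07 to 8.1) stood apart in control organoids at 24 h. Some of these values lie where the gene was hardly detected. No array of the group detected Nrn1 in irradiated organoids at 96 h, or Sftpd and Ddit4l in controls at 24 h. Atf3 was detected on 1 of 4 irradiated arrays at 96 h.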

How the results depend on the processing

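With median scaling 301 genes had a higher and 172 a lower effect at 96 h, and 5389 were called at 24 h. With cyclic loess 283 had a higher effect, and with array weights 318 were called at 96 h. At an adjusted p under 0.01 the counts were 162 higher and 403 lower, 1455 called at 24 h and 285 at 96 h. Without the 5 arrays with the fewest detected probes they were 172 and 411, 1593 and 244. Without irradiated 24 h replicates 3 and 4, chosen after seeing the data, 304 genes had a higher effect and 1454 were called at 24 h. Leaving out each array in turn gave 345 to 621 genes with a higher and 593 to 841 with a lower effect, 1941 to 2651 called at 24 h and 377 to 760 at 96 h. The replicate block gave 415 higher and 682 lower, 5 of 31 replication, 3 of 16 ribosome biogenesis and 3 of 22 antioxidant genes. The labels do not tie samples of the same number, and not every pair correlated over 0.1, so the numbers were not taken as pairs, although 5 of 8 pairs correlated best with their own number, with correlations of same-numbered deviations of 0.38, -0.405, -0.337 and 0.456 at 96 h and 0.131, 0.268, 0.028 and 0.131 at 24 h. Of 131 genes named by the rule, 125 were called, 105 of them with each single array left out. At an adjusted p under 0.05, 62 were called in every setting in which they were tested. The threshold of 0.01 ended 34 of the 125 calls. Median scaling ended 47 of those calls, the removal of 5 arrays 42 and the removal of 2 arrays 23. The change of effect of no named gene reversed under the settings run, but the majority of called genes turned from lower to higher with median scaling, and the median changes of the Notch (-0.28 to 0.11), cholesterol synthesis (-0.02 to 0.36), intestinal transcription factor (-0.06 to 0.27), oxidative phosphorylation (-0.01 to 0.16), unfolded protein response (-0.01 to 0.24) and epithelium (-0.00368 to 0.17) lists took both signs. Except for the stricter threshold, the cause of these differences was not tested. The removals of 5 and of 2 arrays took those with the fewest detected probes, so fewer arrays and low detection cannot be told apart. With 4 arrays per group a change that was not called may still be present.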

Other observations

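Genes of oxidative phosphorylation and cholesterol synthesis had no called change of effect between the times. Of 28 genes of oxidative phosphorylation 0 were called at 96 h and 1, higher, at 24 h, with a median change of 0.09. Of 20 cholesterol synthesis genes, 4 were lower at 96 h and 11 at 24 h, with a median change of 0.07 and limma calls on the change in 0. Over all genes tested, 4.5% had a higher and 6.9% a lower effect at 96 h. Beside these shares, counts of 1 or 2 members below are not read as a result about a list. Of 17 genes of the integrated stress response 1 had a higher and 2 a lower effect at 96 h. Of 13 genes of the unfolded protein response 2 had a lower effect, of 12 Notch pathway genes 2, and of 11 interferon response genes 1. Among 20 intestinal transcription factors 2 had a higher and 2 a lower effect, and among 11 senescence and secretory genes 1 and 2. Of 10 metallothioneins and metal transport genes 4 had a lower effect, and 2 when control 24 h replicate 1 or 2, irradiated 24 h replicate 1, 2 or 4, control 96 h replicate 1 or irradiated 96 h replicate 3 or 4 was left out.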
